A study of Mus musculus with 36 samples.

Results

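The growth hormone receptor and STAT5 axis was followed through 8 genes in differentiating brown pre-adipocytes: the receptors Ghr and Prlr, the kinase Jak2, the transcription factors Stat5a and Stat5b, and the feedback inhibitors Socs2, Socs3 and Cish. The genes were chosen by name, as core components of the axis, but with earlier results of these data known. All 8 were found among the 55536 genes counted in every library. The 36 libraries came from 2 Rxra-/- clones, numbered 48 and 66, each derived from a single cell after Cas9 disruption of Rxra in a clonal mouse brown pre-adipocyte line. By their labels all libraries therefore share the loss of the endogenous Rxra gene, and each carries a retroviral cDNA of the retinoid X receptor RXRα, either wild type (RxraWT) or the S22A form with alanine at residue 22 (RxraSA). Cells were collected when confluent (day 0) and 2 or 6 days after induction, with 3 libraries of each clone, genotype and day, so that a genotype had 6 libraries on each day and a day had 12. By the study's methods the medium held insulin and triiodothyronine throughout. Dexamethasone, isobutylmethylxanthine and indomethacin were present from day 0 to day 2 only. A difference between days therefore cannot be told apart from a difference in these additions. The clones were also sequenced in separate pools, and a difference between clones cannot be told apart from a difference between pools.

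Growth hormone and prolactin act through receptors that have no enzyme activity of their own. A bound receptor activates the tyrosine kinase JAK2, which phosphorylates STAT5A and STAT5B, and these proteins move to the nucleus and bind DNA. SOCS2, SOCS3 and CIS, the product of Cish, are made in response to the signal and dampen it. In adipose tissue growth hormone is known for its effects on lipolysis, and the STAT5 proteins are known to promote fat cell differentiation.

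The coordinates are those of GRCm38, the build of the deposited annotation. Ghr (ENSMUSG00000055737.12) spans chromosome 15, 3317760 to 3583492, on the minus strand, and Prlr (ENSMUSG00000005268.20) spans chromosome 15, 10177238 to 10349180, on the plus strand. Jak2 (ENSMUSG00000024789.13) lies on chromosome 19 at 29251828 to 29313080 (plus strand). Socs2 (ENSMUSG00000020027.18) lies on chromosome 10 at 95385362 to 95417180 and Socs3 (ENSMUSG00000053113.3) on chromosome 11 at 117966079 to 117970047, both on the minus strand, and Cish (ENSMUSG00000032578.7) on chromosome 9 at 107296026 to 107302784 on the plus strand. Stat5a (ENSMUSG00000004043.14) and Stat5b (ENSMUSG00000020919.11) are neighbours on chromosome 11. The counts cover all annotated exons of each gene, untranslated parts included.

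STAT5 dimers bind the palindrome TTCNNNGAA, which reads the same on both strands. It was searched in the RefSeq promoters of the genes, each holding 250 bases before the annotated start and 50 after it (GRCm38.p6). The table held 12 promoters for 7 of the 8 genes, all but Socs2, and a match was found in 3 of these promoters, those of Cish, Socs3 and 1 of the 3 listed starts of Prlr. Of all 32851 promoters of this length, 8.30% held the motif and 0.457% held it at least 2 times, so a match on its own is not rare. The 30 bases around the matches are shown because 2 of the genes are inhibitors that STAT5 is known to induce, with the motif in capitals, on the strand of the gene and 5′ to 3′.
Cish, chr9:107296654-107296683 (+): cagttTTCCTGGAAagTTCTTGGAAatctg
Socs3, chr11:117969501-117969530 (-): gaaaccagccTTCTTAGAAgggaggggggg
Prlr, chr15:10223786-10223815 (+): gcaaaatgagTTCTAGGAAtaagggatatc
The Cish window holds the motif 2 times, with first bases at positions 1 and 12 counted from the RefSeq start of its promoter. The motif of Socs3 begins 154 bases before its RefSeq start and that of Prlr 110 bases before its own. The RefSeq starts of Cish and Socs3 lie inside the gene spans given above and are not the ends of those spans. The matches are of letters and were not tested as binding sites in these cells.

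Stat5a and Stat5b lie next to each other on chromosome 11 (Stat5a at 100859351 to 100885169, plus strand, and Stat5b at 100780731 to 100850724, minus strand, GRCm38) and resemble each other closely. Their coding sequences share an identical stretch of 324 bases, which spans coding bases 571 to 894 in both. Its first 120 bases are shown because read pairs that fall wholly in it cannot be assigned to either gene.
Stat5a and Stat5b, shared coding sequence: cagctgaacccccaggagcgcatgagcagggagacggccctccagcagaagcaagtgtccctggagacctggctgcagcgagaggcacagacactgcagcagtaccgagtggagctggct
Of all windows of 35 bases in their transcripts, 19.0% of those of Stat5a and 14.2% of those of Stat5b occurred in both. The authors left out read pairs that aligned to more than 1 place, so the counts of both genes miss such pairs and are uncertain to that extent. Cish is uncertain for another reason: 11.5% of its exon bases overlap the antisense genes Gm17040 and Gm17041, and the counting did not use the strand. Exons of Prlr and Stat5a overlapped those of other genes over 203 and 72 bases, and Ghr, Jak2, Stat5b, Socs2 and Socs3 had no such overlap.

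The libraries held 11351078 to 24349263 counted read pairs (median 18338726). Levels are given as CPM, counts scaled to a common library size with TMM factors. Where genes are compared with each other, CPM was divided by the exon length in kilobases (FPKM). That length is of all annotated exons together and can differ from that of the transcripts present. The order of genes by FPKM depends on it. The cells are labelled brown pre-adipocytes. The summed level of 5 adipocyte markers (Pparg, Cebpa, Fabp4, Adipoq and Plin1) lay between 90.8 and 210 CPM at day 0, between 2796 and 5231 CPM at day 2 and between 5410 and 9444 CPM at day 6. That of 5 pre-adipocyte markers (Pdgfra, Pdgfrb, Cd34, Ly6a and Dlk1, of which Dlk1 did not pass the filter on low counts) lay between 255 and 465, between 33.7 and 103.5 and between 42.0 and 168 CPM. Of 6 markers of brown fat, Ppargc1a, Cidea and Ebf2 passed that filter, while Ucp1, Dio2 and Prdm16 did not, and Ucp1 reached at most 0.307 CPM at day 6. Markers of other cell types were low. The epithelial list summed to at most 0.729 CPM, the endothelial list to at most 0.995, the list of macrophages and blood to at most 12.7 and the muscle list to at most 30.1. Of the muscle list, Des gave nearly all of the day 6 signal (19.9 ± 4.49 CPM, SD, n = 12) and Myod1 and Epcam had no count. The adipocyte and pre-adipocyte markers and Des moved with the day, and their part in the changes between days was not tested. Rxra itself was counted at 161 ± 39.8, 542 ± 91.8 and 246 ± 53.7 CPM at days 0, 2 and 6 (SD, n = 12). These counts pool endogenous and retroviral RNA and therefore do not check the disruption. In bulk RNA a smaller number of expressing cells cannot be told apart from less RNA per cell, and this applies to every level below.

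**Figure D1:**
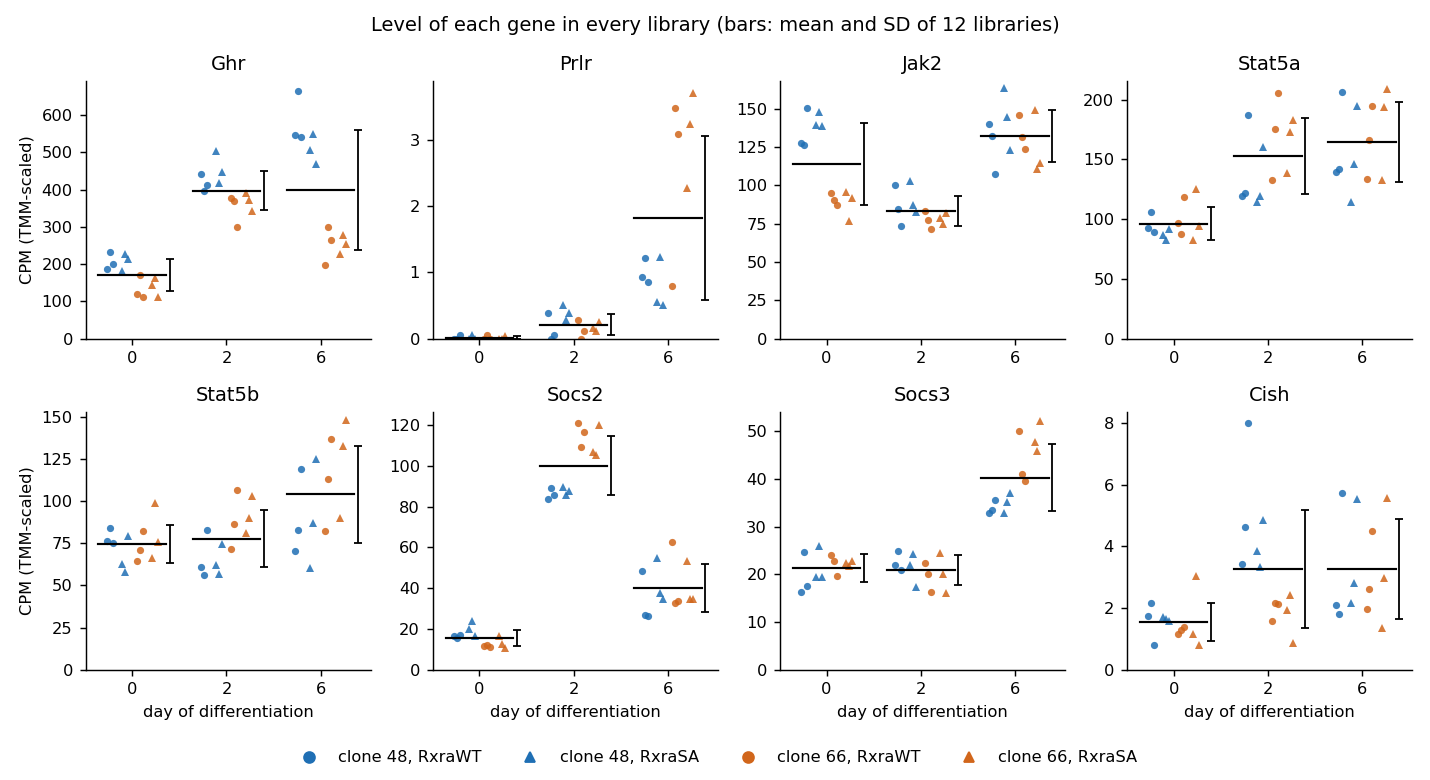
CPM of the 8 genes in each of the 36 libraries by day of differentiation, with clones in blue and orange and genotypes as circles and triangles; horizontal bars show the mean and vertical bars the SD of 12 libraries. Socs2 peaks at day 2, Socs3 and Prlr are highest at day 6, and Ghr splits by clone at day 6 (469 to 664 CPM in clone 48 and 198 to 299.6 in clone 66).

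The first question was how the axis changed during differentiation. All 8 genes passed the filter on low counts and entered the test of 16723 genes. Prlr had at most 8 counts in any library before day 6, so it passed through its day 6 libraries. Its rise to day 6, and its place among genes without overlap of days, therefore follow in part from the filter. Between day 0 and day 6 all 8 rose, with log2 fold changes from 0.24 for Jak2 to 6.26 for Prlr, whose day 0 level rests on 4 counts, and a median of 1.00, beside a median of -0.03 over all genes tested. The 8 genes were chosen with earlier results known, so the medians are set side by side as a description only. Of all genes tested, 68.3% were called in this comparison, 32.9% higher and 35.4% lower. Between day 0 and day 2 the test called 6 of the 8 genes, 5 higher and 1 lower, where 73.3% of all genes were called (35.8% higher and 37.5% lower). Between day 2 and day 6 it called 5, 4 higher and 1 lower, where 62.0% of all genes were called (31.9% higher and 30.1% lower). A call between days was thus common among all genes. The 3 comparisons share their libraries, so their values are set side by side and are not independent of each other. With a library-size scaling in place of TMM the median change of all genes moved to -0.27 between days 0 and 2 and to -0.22 between days 0 and 6, and the share of called genes that were higher moved from 48.9% to 33.6% and from 48.2% to 34.9%. Changes below are relative to the TMM scaling.

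Ghr, which encodes the growth hormone receptor, was the most abundant of the genes per length from day 2 on. At day 0 it ranged from 112 to 232 CPM (median 176) and at day 2 from 300.0 to 505 CPM (median 393), so that no day 0 library reached any day 2 library. It rose between these days by 1.25 ± 0.11 on the log2 scale (SE; adjusted p = 9.8e-13), or 2.38-fold. At day 6 the 12 libraries spread from 198 to 664 CPM (median 384) and the mean change from day 2 was -0.09 ± 0.11 (adjusted p = 0.496). That mean hides opposite movements in the 2 clones, described with the clones below.

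Prlr, the prolactin receptor gene, was close to absent at the start. In the 12 day 0 libraries it had 4 counts in all, 1 in each of 4 libraries and 0 in the other 8, where a count of 0 allows up to 0.264 CPM by total count in the shallowest library. At day 2 it had 43 counts in all, between 0 and 8 per library, and at day 6 it had 417, between 9 and 83. Every day 6 library lay above every day 2 library, although by a small margin (lowest 0.515 and highest 0.506 CPM). Pooled and divided by the total counts, the day 6 level was 98.7 times the day 0 level, with an exact 95% interval from 38.2 to 364 that covers counting error only. The fitted changes were 3.18 ± 0.75 between days 0 and 2 (SE, log2 scale; adjusted p = 0.000318) and 3.08 ± 0.36 between days 2 and 6 (adjusted p = 3.43e-09). Prlr entered the test through its day 6 libraries. The fitted rise to day 6, the ratio and the lack of overlap therefore follow in part from the filter on low counts. Even at day 6 the level was 0.119 ± 0.0809 FPKM (SD, n = 12), and over all libraries only 0.454% of the genes tested had a lower mean level per length.

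Jak2, the kinase shared by both receptors, had the smallest net change and was the only one of the genes called lower by day 2. Its day 0 libraries ranged from 76.9 to 150.2 CPM (median 111), its day 2 libraries from 71.7 to 103 (median 82.1) and its day 6 libraries from 108 to 164 (median 132). Days 0 and 2 overlapped, while every day 6 library lay above every day 2 library. It fell by 0.43 ± 0.08 on the log2 scale between days 0 and 2 (SE; adjusted p = 2.58e-05) and rose by 0.67 ± 0.08 between days 2 and 6 (adjusted p = 1.4e-08). In clone 66 alone the early change was -0.17 ± 0.09 and not called (adjusted p = 0.111). The net rise of 0.24 ± 0.08 between days 0 and 6 (adjusted p = 0.0107) was the smallest of the 8. It was not called without any 1 of the 3 replicate numbers of clone 66 (adjusted p between 0.0507 and 0.107), with library size alone (log2 fold change 0.06) or in clone 48 alone, where it was -0.027.

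Stat5a and Stat5b encode the 2 STAT5 proteins and were called higher over different intervals. Stat5a ranged from 82.2 to 125 CPM at day 0 (median 92.2), from 115 to 206 at day 2 (median 150) and from 114 to 209 at day 6 (median 156). The day 0 libraries overlapped those of both later days. Stat5a rose by 0.66 ± 0.11 on the log2 scale between days 0 and 2 (SE; adjusted p = 1.16e-06) and changed by 0.11 ± 0.11 between days 2 and 6 (adjusted p = 0.357). Stat5b ranged from 57.8 to 99.1, from 56.2 to 106 and from 60.2 to 148 CPM on the 3 days, with medians of 75.6, 78.0 and 102. Its change between days 0 and 2 was 0.04 ± 0.12 (adjusted p = 0.762), and it rose by 0.42 ± 0.12 between days 2 and 6 (adjusted p = 0.00229). Fitted alone, clone 66 just missed the threshold for this rise (0.39 ± 0.16, adjusted p = 0.0519), and clone 48 missed it for the change from day 0 to day 6 (0.34 ± 0.18, adjusted p = 0.113).

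Part of this spread followed the replicate number. At day 6 the replicate 3 libraries were the highest of their line (a clone with 1 genotype) for Stat5a and for Stat5b in all 4 lines, at 194 to 209 and 119 to 148 CPM, above the replicate 1 libraries at 114 to 139 and 60.2 to 89.95 CPM. Cish showed the same order at day 6, with replicate 3 at 4.51 to 5.73 CPM and the others at 1.35 to 2.98. For Socs2 and Jak2 the replicate 1 libraries were the highest in all 4 lines at day 6, and for Ghr this was replicate 2 at days 0 and 6 and replicate 1 at day 2. What the replicate numbers stand for was not tested. A fit with the replicate numbers as a block left every call of the 8 genes between days in place.

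Socs2 encodes an inhibitor that growth hormone is known to induce and that acts on its receptor. It was the one gene of the 8 whose libraries were apart between every pair of days. How many of all genes tested share this was not calculated. The libraries of Socs2 ranged from 10.9 to 23.9 CPM at day 0 (median 16.1), from 83.7 to 121 at day 2 (median 97.5) and from 26.6 to 62.5 at day 6 (median 34.9). It rose 6.51-fold between days 0 and 2 (2.703 ± 0.14 on the log2 scale, SE; adjusted p = 3.65e-18), then fell by 1.32 ± 0.14 on the log2 scale by day 6 (adjusted p = 2.08e-10), and remained above its starting level by 1.39 ± 0.14 (adjusted p = 6.77e-11).

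Socs3, an inhibitor best known for restraining cytokine receptors of the gp130 family, rose late. At day 0 it ranged from 16.2 to 25.9 CPM (median 22.0), at day 2 from 16.02 to 24.9 (median 21.5) and at day 6 from 32.8 to 52.2 (median 38.4). Days 0 and 2 overlapped, and every day 6 library was above both. The change between days 0 and 2 was -0.03 ± 0.09 (SE, log2 scale; adjusted p = 0.796), but with library size alone it was -0.29 and called (adjusted p = 0.00617). The rise between days 2 and 6 was 0.94 ± 0.09 (adjusted p = 7.84e-11).

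Cish, whose product CIS is a STAT5-induced inhibitor, was low throughout, at 1.54 ± 0.618, 3.27 ± 1.92 and 3.27 ± 1.62 CPM at days 0, 2 and 6 (SD, n = 12), from 16 to 129 counts per library. It rose by 0.99 ± 0.27 on the log2 scale between days 0 and 2 (SE; adjusted p = 0.00174) and changed by 0.10 ± 0.26 after that (adjusted p = 0.754). In clone 48 alone the early rise was 1.51 ± 0.34 (adjusted p = 0.00091), and in clone 66 alone the change was 0.36 ± 0.38 (adjusted p = 0.434). The difference between the clones in this change did not pass the test (adjusted p = 0.204).

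Libraries of 2 days did not overlap for 2 of the 8 genes between days 0 and 2 (Ghr and Socs2), where this held for 27.7% of all genes tested. The count was 4 between days 2 and 6 (Prlr, Jak2, Socs2 and Socs3; 17.1% of all genes) and 3 between days 0 and 6 (Prlr, Socs2 and Socs3; 23.2% of all genes).

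**Figure D2:**
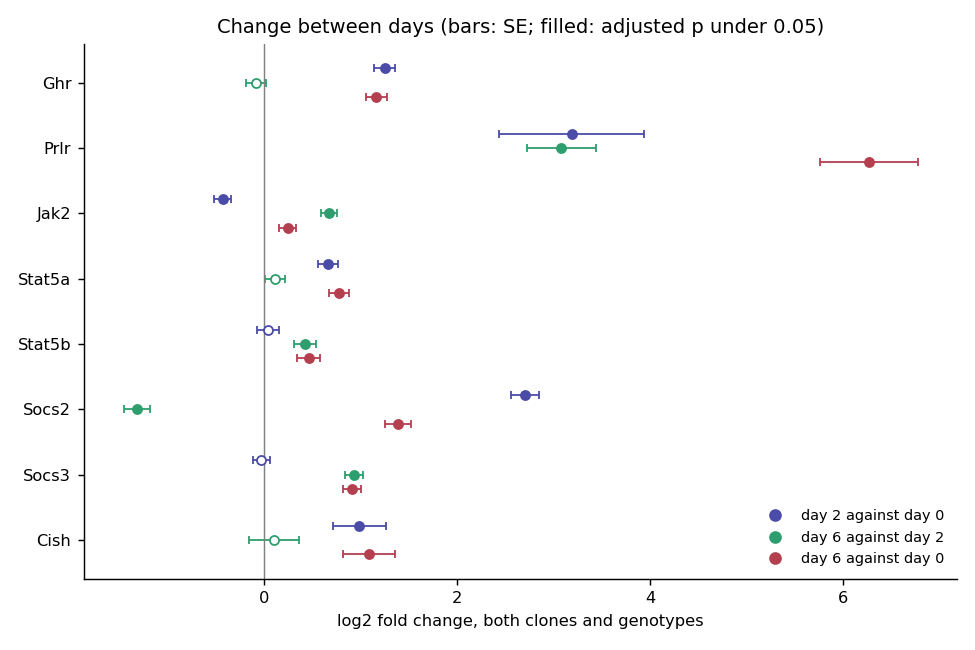
Log2 fold changes of the 8 genes between days, over both clones and genotypes, with bars for the SE and filled points for adjusted p-values under 0.05. The points of Socs2 fall on both sides of 0 (2.703 by day 2 and -1.32 after it), Socs3 and Stat5b move after day 2, and Prlr reaches 6.26 by day 6.

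The levels were then compared between the genes per length. At day 0 Jak2 (22.7 ± 5.33 FPKM, SD, n = 12) stood above Ghr (19.0 ± 4.79) in 9 of 12 libraries, and Ghr stood above Stat5a (13.5 ± 1.92) in 9 of 12. Stat5a was above Stat5b (13.5 ± 2.03) in 4 of 12, so none of these neighbours was apart from the next. Socs3 followed at 7.39 ± 1.01 FPKM, Socs2 at 1.62 ± 0.409, Cish at 0.241 ± 0.0963 and Prlr at 0.00108 ± 0.00161, and these steps held in 12 of 12 libraries. At day 2 Ghr (43.9 ± 5.88 FPKM) stood above Stat5a (21.4 ± 4.46) in all 12 libraries. Below it Stat5a exceeded Jak2 (16.6 ± 1.95) in 9 of 12 and Jak2 exceeded Stat5b (14.0 ± 3.07) in 7 of 12, so these neighbours overlapped. Socs2 (10.5 ± 1.52) had by then passed Socs3 (7.23 ± 1.07) in all 12 libraries. At day 6 Ghr averaged 44.1 ± 17.8 FPKM and was above Jak2 (26.3 ± 3.39) in 10 of 12 libraries, Jak2 was above Stat5a (23.1 ± 4.71) in 7 of 12, and Stat5a was above Stat5b (18.8 ± 5.18) in all 12. Stat5b was above Socs3 (13.9 ± 2.42) in 9 of 12. Socs3 was again above Socs2 (4.21 ± 1.22) in every library.

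**Figure D3:**
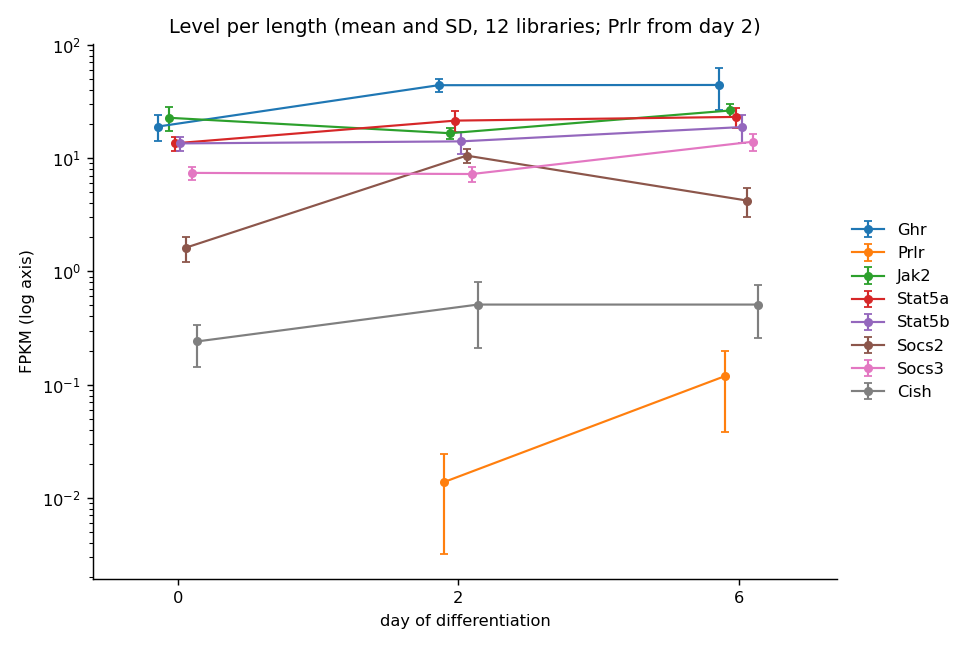
Mean level per length of each gene by day, in FPKM on a log axis, with bars for the SD of 12 libraries; Prlr is drawn from day 2 since its day 0 mean rests on 4 counts. Ghr leads at days 2 and 6 (43.9 and 44.1 FPKM), the lines of Socs2 and Socs3 cross between days, and Cish and Prlr stay under 1 FPKM.

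Ratios taken within a library do not depend on its scaling, but whether they exceed 1 depends on the exon lengths used. These were 9531 bases for Socs2 and 2891 for Socs3, whose mean CPM at day 6 were nearly equal (40.1 and 40.3). The ratio of Stat5a to Stat5b in FPKM averaged 1.01 ± 0.0855, 1.53 ± 0.131 and 1.26 ± 0.145 on the 3 days (SD, n = 12). Its range at day 2 (1.32 to 1.76) lay above the whole range at day 0 (0.901 to 1.16). Since both genes lose read pairs from the stretch they share, the ratio is that of the read pairs that could be assigned. The ratio of Socs2 to Socs3 averaged 0.223 ± 0.0635, 1.498 ± 0.399 and 0.307 ± 0.0951, and was above 1 in every day 2 library and in no other library. For Ghr to Jak2, the receptor and its kinase, the ratio was 0.845 ± 0.157, 2.66 ± 0.242 and 1.70 ± 0.700. At day 6 this last ratio was 2.29 ± 0.428 in clone 48 and 1.11 ± 0.254 in clone 66 (SD, n = 6), and the 2 ranges did not overlap (1.72 to 2.80 and 0.754 to 1.39).

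**Figure D4:**
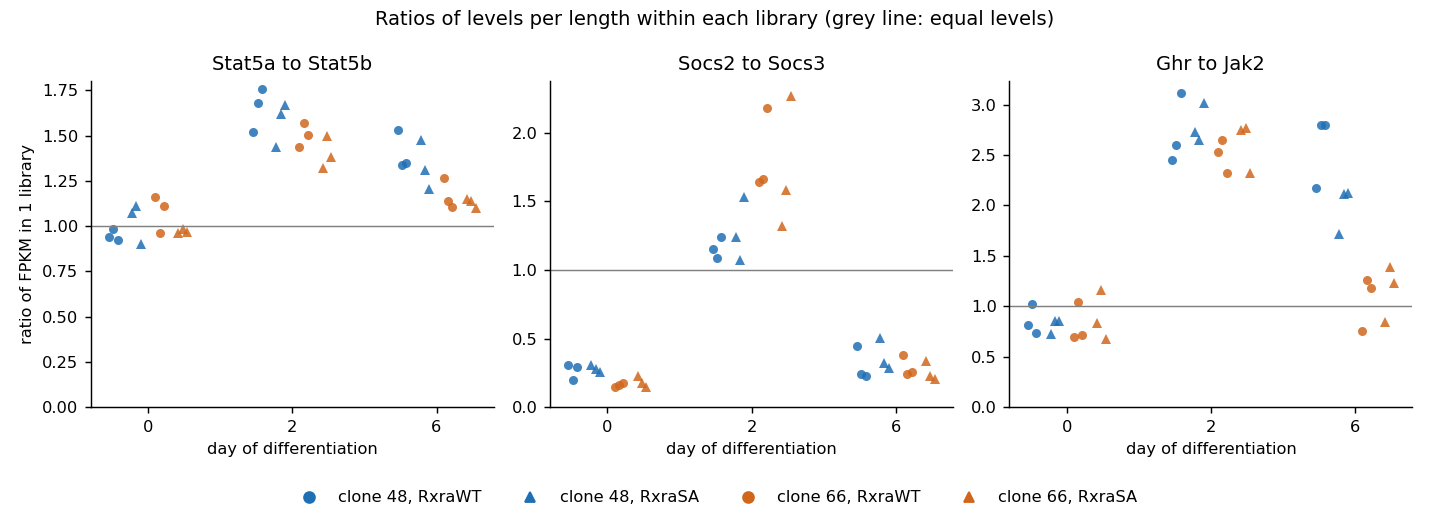
Ratios of FPKM within each of the 36 libraries for Stat5a to Stat5b, Socs2 to Socs3 and Ghr to Jak2, by day, with clones in blue and orange, genotypes as circles and triangles, and a grey line at equal levels. Per exon length, Socs2 exceeds Socs3 at day 2 alone (ratios of 1.07 to 2.27), and the day 6 ratios of Ghr to Jak2 separate by clone.

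The study asked whether phosphorylation of RXRα at serine 22 alters gene expression during differentiation, and for the axis this is the comparison of RxraSA with RxraWT on each day. None of the 8 genes was called on any day (adjusted p = 1 for each), and none had an unadjusted p-value under 0.05 among 24 tests. Of all genes tested, 0.0% were called on each day, and DESeq2 called 0 genes as well. On the 3 days 139, 162 and 125 of 16723 genes fell under an unadjusted p of 0.05. That is far below a share of 0.05, so this test was conservative, and it did not use the pairing of same-numbered libraries. With a block for every pair of libraries the numbers were 704, 692 and 477, and again none of the 8 genes was called. The values that follow are from the fit without that block, unless it is named. For the 6 genes other than Prlr and Cish the log2 differences lay between -0.12 and 0.25, with SEs of 0.12 to 0.19. For Prlr at day 2 the difference was 1.04 ± 0.70 (SE), from 29 counts in RxraSA and 14 in RxraWT. For Cish it was 0.25 ± 0.40, -0.32 ± 0.37 and 0.13 ± 0.36 on the 3 days.

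The genotypes were also compared by their mean levels. Ghr was at 170 ± 47.0, 383 ± 48.6 and 419 ± 189 CPM in RxraWT at days 0, 2 and 6 (SD, n = 6) and at 173 ± 43.8, 412 ± 58.0 and 380 ± 143 in RxraSA. At day 2 it was higher in RxraSA in 6 of 6 same-numbered pairs and at day 6 lower in 5 of 6. With a block for every pair of libraries the day 2 difference was 0.10 ± 0.06 on the log2 scale and again not called (adjusted p = 1). Socs2 at day 2 was at 101 ± 16.6 CPM in RxraWT and 99.1 ± 13.6 in RxraSA, and Socs3 at day 6 was at 38.7 ± 6.41 and 41.8 ± 7.83. Socs2, Socs3 and Stat5b at day 6 were higher in RxraSA in 5 of 6 pairs, and Stat5a at day 2 was lower in 5 of 6. How often all genes split in such ways was not calculated. The genes with few counts stood further apart at day 2. Prlr was at 0.140 ± 0.160 CPM in RxraWT and 0.284 ± 0.144 in RxraSA, higher in RxraSA in 5 of 6 pairs, and Cish was at 3.65 ± 2.40 and 2.88 ± 1.43, higher in 3 of 6. Neither difference was called. The interaction of genotype with time was not called for any of the 8 genes (0.0% of all genes called), and the genotype effect did not differ by the test between clones for any of them (0.0% of all genes called).

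**Figure D5:**
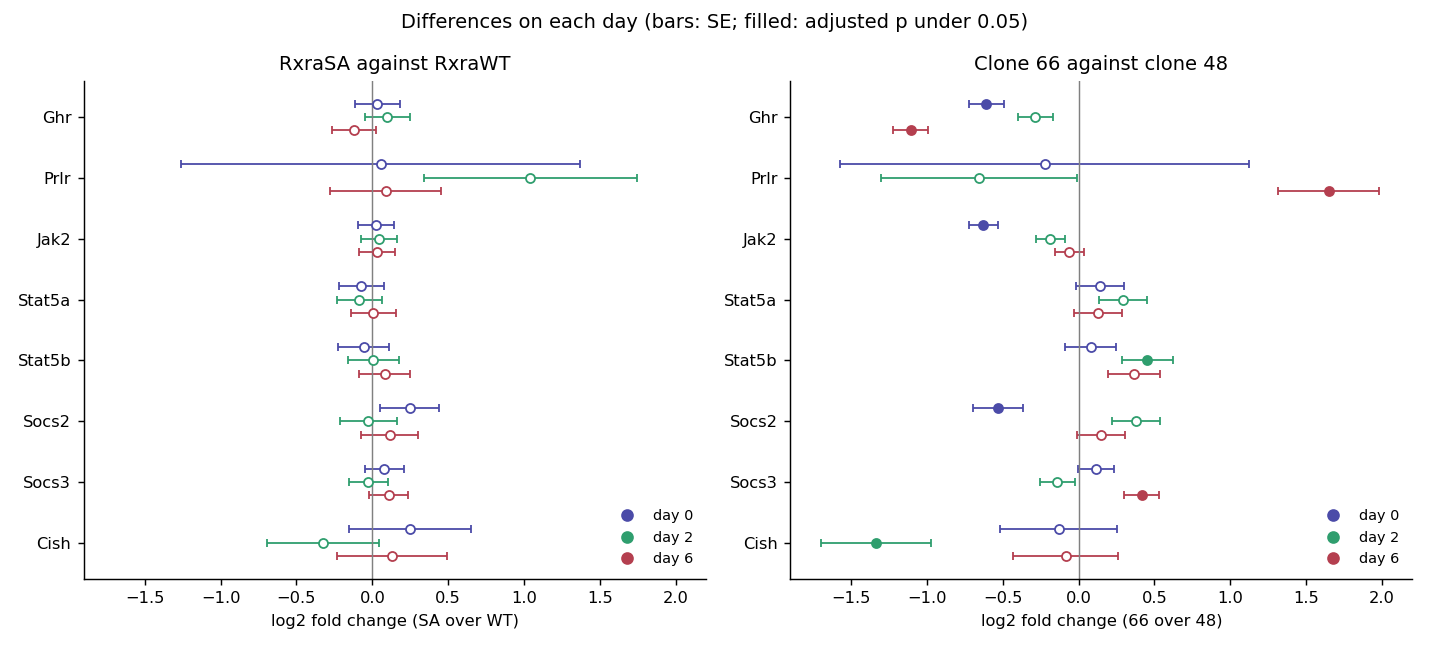
Log2 differences of the 8 genes on each day for RxraSA against RxraWT (left) and for clone 66 against clone 48 (right), with bars for the SE and filled points for adjusted p-values under 0.05. No point on the left is filled, and on the right the points of Ghr lie at -0.61, -0.29 and -1.11.

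More of the 8 genes were called between clones than between genotypes, and the same held over all genes tested. The clone tests and the genotype tests came from different models. Clone 66 differed from clone 48 for 3 of the 8 genes at day 0, all lower (23.7% of all genes were called, 12.6% higher and 11.1% lower). It differed for 2 at day 2, 1 higher and 1 lower (30.0% of all genes, 14.5% higher and 15.5% lower), and for 3 at day 6, 2 higher and 1 lower (26.2% of all genes, 13.4% higher and 12.8% lower). Libraries of the 2 clones did not overlap for Ghr and Jak2 at day 0 (13.7% of all genes), for Ghr, Socs2 and Cish at day 2 (18.6%) and for Ghr and Socs3 at day 6 (15.2%).

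Among the genes of the axis, only Ghr had clones that were separate on every day. The share of all genes tested that resembled Ghr in this was not calculated. At day 0 clone 48 ranged from 182 to 232 CPM (median 206) and clone 66 from 112 to 170 (median 131), a log2 difference of -0.61 ± 0.11 (SE; adjusted p = 0.000167). At day 2 the ranges were 396 to 505 and 300.0 to 390, and the difference of -0.29 ± 0.11 did not pass the test (adjusted p = 0.0586), although it did with library size alone or without replicate 1 or 2 of clone 66 (adjusted p between 0.0347 and 0.0443). At day 6 the 3 libraries of clone 48 were at 547, 664 and 542 CPM in RxraWT and at 506, 549 and 469 in RxraSA, and those of clone 66 at 198, 299.6 and 264 in RxraWT and at 226, 277 and 254 in RxraSA. The difference was -1.11 ± 0.12 (adjusted p = 1.57e-08), or 2.15-fold lower in clone 66. From day 2 to day 6 Ghr rose by 0.35 ± 0.09 in clone 48 fitted alone (adjusted p = 0.00416) and fell by 0.50 ± 0.13 in clone 66 fitted alone (adjusted p = 0.00475). In the model with all 12 groups the difference between the clones in this change was -0.82 ± 0.16 (adjusted p = 0.0012, and between 1.51e-05 and 0.0391 over all alternatives), where 6.18% of all genes were called.

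Prlr at day 6 was at 0.515 to 1.23 CPM in clone 48 and at 0.790 to 3.70 in clone 66, so that the clones overlapped through 1 library of clone 66. The difference of 1.65 ± 0.33 (SE, log2 scale; adjusted p = 0.000354) rests on 90 against 327 counts. The clones' difference in the change from day 2 to day 6 did not pass the test (2.31 ± 0.75, adjusted p = 0.0654) but did with the replicate block (2.30 ± 0.72, adjusted p = 0.0347). It also did with DESeq2, with the version 4 test of edgeR, with no filter, without replicate 2 of clone 48 (2.99) and without replicate 1 of clone 66 (3.14), with adjusted p between 0.0137 and 0.0466.

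Jak2 at day 0 was at 126 to 150.2 CPM in clone 48 and at 76.9 to 95.6 in clone 66 (log2 difference -0.63 ± 0.10, SE; adjusted p = 9.3e-06). At days 2 and 6 the clones overlapped and the differences were -0.19 ± 0.10 (adjusted p = 0.151) and -0.06 ± 0.10 (adjusted p = 0.7). The clones differed in the change from day 0 to day 6 (0.57 ± 0.14, adjusted p = 0.0115; 3.85% of all genes) and, less firmly, from day 0 to day 2 (0.44 ± 0.14, adjusted p = 0.0436; 6.84% of all genes). The former was lost with no filter and without replicate 2 of clone 48 or replicate 1 of clone 66 (adjusted p between 0.0625 and 0.0766). The latter was lost with the shallowest library left out, RxraSA replicate 1 of clone 48 at day 0 (adjusted p = 0.0566), with library size alone, with no filter, and without replicate 2 or 3 of clone 48 or any replicate of clone 66 (0.0765 to 0.218). Without replicate 3 of clone 48 the day 2 difference was -0.25 and called (adjusted p = 0.0377).

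Stat5a did not differ between clones on any day by the test (log2 differences of 0.14, 0.29 and 0.13, SE 0.16 each). Without replicate 3 of clone 48 or replicate 1 of clone 66 its day 2 difference was called, at 0.52 and 0.43 (adjusted p = 0.0148 and 0.0453). Stat5b was higher in clone 66 at day 2 (0.45 ± 0.17, SE; adjusted p = 0.0434), with 56.2 to 82.8 CPM in clone 48 and 71.6 to 106 in clone 66, and this call was lost with library size alone (adjusted p = 0.0642) and without replicate 1 or 2 of clone 48 or replicate 2 or 3 of clone 66 (between 0.107 and 0.247). At day 6 the difference of 0.37 ± 0.17 was not called (adjusted p = 0.114), but it was without replicate 3 of clone 48 (0.64, adjusted p = 0.00526) or replicate 1 of clone 66 (0.55, adjusted p = 0.0185).

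Socs2 was lower in clone 66 at day 0, and at day 2 its libraries lay higher there. At day 0 it ranged from 15.8 to 23.9 CPM in clone 48 and from 10.9 to 16.7 in clone 66 (-0.53 ± 0.16, SE, log2 scale; adjusted p = 0.0173). At day 2 the clones did not overlap, at 83.7 to 89.8 and 105 to 121 CPM (0.38 ± 0.16, adjusted p = 0.0711, and 0.0486 without replicate 1 of clone 66). With each clone fitted alone, its induction by day 2 was 2.24 ± 0.16 in clone 48 and 3.20 ± 0.17 in clone 66. In the model with all 12 groups the difference between the clones in this induction was 0.91 ± 0.23 and passed the test (adjusted p = 0.0107; 0.00104 with the replicate block). Without replicate 2 of clone 48 or replicate 3 of clone 66 it did not (adjusted p = 0.0886 and 0.1), and the day 0 difference was also lost without these or without replicate 2 of clone 66 (0.0515 to 0.112).

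Socs3 was higher in clone 66 at day 6, at 39.6 to 52.2 CPM against 32.8 to 37.1 in clone 48 (0.42 ± 0.12, SE, log2 scale; adjusted p = 0.00728). Its change from day 2 to day 6 was larger in clone 66 by 0.56 ± 0.16 (adjusted p = 0.0374), a call lost with library size alone, with no filter, and without replicate 1 or 2 of clone 48 or replicate 2 or 3 of clone 66 (adjusted p between 0.056 and 0.199). The day 6 difference was lost without replicate 1 of clone 48 (adjusted p = 0.0513). Cish was lower in clone 66 at day 2, at 0.873 to 2.42 CPM against 3.33 to 7.995 (-1.33 ± 0.36, adjusted p = 0.00526), and did not differ by the test at days 0 and 6.

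With the replicate block the clones differed in the change from day 0 to day 6 for 3 of the 8 genes in place of 1, and over all 16723 genes for 1369 in place of 644. Ghr (-0.49 ± 0.13, SE, log2 scale; adjusted p = 0.021) and Socs2 (0.68 ± 0.19, adjusted p = 0.0234) joined Jak2. DESeq2 also called Ghr (adjusted p = 0.044), and Socs2 was also called without replicate 1 of clone 48 (0.96, adjusted p = 0.0265).

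The other genes of the pathway were taken as lists, also chosen with earlier results of these data known, so their medians are a description only. Of the ligands, Gh had no count in 36 libraries, which allows up to 0.264 CPM by total count in the shallowest, and Prl had 8 counts in all. Of 17 related cytokine receptors, 10 were tested, and between days 0 and 6 the test called 2 higher and 8 lower, with a median log2 change of -0.84 beside -0.03 over all genes (the others were too low). Over all genes 68.3% were called in this comparison, 32.9% higher and 35.4% lower. Of the 7 other JAK and STAT genes tested, 3 were higher, 3 lower and 1 not called (median 0.09). Among 16 regulators 4 were higher, 7 lower and 5 not called (median -0.16), and among 15 genes known as STAT5 targets 8 were higher, 3 lower and 4 not called (median 0.93). In the regulators and the targets 11 genes each were called, a share near that of all genes. No gene of these lists was called between genotypes on any day.

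The genes with the largest changes in each list moved in different ways. Osmr, the oncostatin M receptor, fell by 2.58 ± 0.13 on the log2 scale between days 0 and 6 (SE; adjusted p = 1.41e-18). Il6st, which encodes the shared subunit gp130, fell by 1.55 ± 0.14 (adjusted p = 8.2e-12), and Ifngr2, an interferon gamma receptor chain, fell by 1.08 ± 0.06 (adjusted p = 2.16e-17). Jak3, a kinase best known from lymphocytes, rose by 1.47 ± 0.12 (adjusted p = 5.7e-13). Stat6, which acts downstream of interleukin 4, was lowest at day 2, with 133 ± 17.9, 45.5 ± 5.74 and 91.7 ± 10.8 CPM on the 3 days (SD, n = 12).

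Sh2b2, an adaptor protein that binds JAK2 and the insulin receptor, rose by 3.71 ± 0.11 between days 0 and 2 (SE, log2 scale; adjusted p = 4.14e-25) and held its level at 73.0 and 74.9 CPM. The inhibitor Socs5 fell by 0.83 ± 0.14 and its relative Socs7 rose by 0.75 ± 0.06 between days 0 and 6 (adjusted p = 4.7e-06 and 1.87e-13). Igf1, the growth factor through which growth hormone exerts much of its action, rose by 3.57 ± 0.40 between days 0 and 6 (adjusted p = 9.84e-10), from 10.3 ± 8.51 to 116 ± 37.3 CPM (SD, n = 12). The cyclin gene Ccnd2 rose by 3.18 ± 0.30 (adjusted p = 1.14e-11). Pparg, which encodes the main regulator of adipocyte differentiation and is also one of the adipocyte markers above, rose by 2.80 ± 0.09 (adjusted p = 4.94e-25).

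Genes whose mean log2 CPM over the 12 groups of clone, genotype and day ran most closely along each of the 8 genes were named by Pearson's r, as a description only, since all points share the same libraries. Socs2 was followed by Necap1 (r = 0.993), 1190002N15Rik (0.991) and Nt5c2 (0.991). Stat5a had Nlk (0.989), Med9 (0.987) and Jade2 (0.986), and Socs3 had Elf2 (0.987), Acss2 (0.983) and Sphk2 (0.973). Ghr ran along Agtpbp1 (0.982), Sucla2 (0.976) and Syap1 (0.976). Stat5b had Inppl1 (0.976), Slc39a1 (0.974) and Mbtd1 (0.973), and Prlr had Gpr19 (0.975), Ppp1r3c (0.969) and Amy1 (0.967). Cish followed, with Zfyve19 at 0.968, B230369F24Rik at 0.965 and Slc37a4 at 0.962, and then Jak2, with Hbp1 at 0.965, Smpdl3a at 0.962 and Nudt16 at 0.960. Among the 8 genes themselves the closest pair was Prlr with Socs3 (r = 0.915), and Socs2 had r = -0.04 with Socs3 and -0.44 with Jak2.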

How the data were processed

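The authors aligned the reads of 36 stranded total RNA libraries to GRCm38 (mm10) with STAR 2.7.0d and counted read pairs on GENCODE M21 exons with featureCounts 1.6.2, without strand, leaving out pairs with several matching genes or places. They deposited raw counts per gene, which were used here as given. Low counts were removed with filterByExpr of edgeR 4.0.16 (16723 of 55536 genes kept) and counts were scaled by TMM. A model with each genotype and day plus clone, as in the study's methods, was fitted with edgeR, using the earlier form of its quasi-likelihood test. Clone differences came from a model with all 12 groups. A gene was called when its p-value, adjusted over all genes by Benjamini-Hochberg, was under 0.05. CPM and FPKM were calculated here from the TMM-scaled counts. The members and lists were chosen with earlier results of these data known. Lists name the 3 called genes with the largest change between days 0 and 6 and an average log2 CPM of at least 3, and like genes are the 3 with the highest r and an average log2 CPM of at least 1. Some items that these rules name are not reported here.

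Groups and replicate numbers came from the sample labels. The series text treats the 3 replicates of a line as technical, while the methods of the study call them independent, so p-values measure the spread between these libraries, which may be technical. Deviations of same-numbered libraries from their group means correlated in each of 18 pairs (0.176 to 0.93, mean 0.71, 9381 genes), so the numbers were taken to pair the libraries. No 2 libraries were identical. The depth of 11351078 to 24349263 counts limits the precision of genes with few counts, such as Prlr and Cish. Alternatives were the replicate block, a block for each pair of libraries, DESeq2 1.42.0, other scalings and filters, edgeR's version 4 test, clone-specific groups, each clone alone, and libraries left out. The fits were tested on simulated data with added genotype differences at day 0 only. Its libraries were drawn independently, so the test did not cover the pairing of libraries. Work was done in R 4.3.3 and python 3.11.15.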

Additional observations from a re-analysis of the deposited data

Results flagged for a closer look

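Among 48 groups of 6 libraries (8 genes, 2 genotypes, 3 days), 1 library lay apart from its group for 1 gene: Stat5a at day 0 in RxraSA replicate 2 of clone 66 was at 125.3 CPM, where the next highest library was at 94.5 and the lowest at 82.2. For independent libraries drawn alike, about 1 in 20 groups holds such a library by chance. Each group here joins 2 clones, and its libraries may be technical replicates, so that rate is only a rough guide. The other values listed here are changes between days that differed between the clones by the test of the difference itself, given as clone 66 minus clone 48 on the log2 scale. From day 0 to day 2 they were 0.91 for Socs2 (adjusted p = 0.0107) and 0.44 for Jak2 (0.0436). From day 2 to day 6 they were 0.56 for Socs3 (0.0374) and -0.82 for Ghr (0.0012), and from day 0 to day 6 the value was 0.57 for Jak2 (0.0115). Between days 2 and 6 Ghr had opposite signs in the 2 clones. Jak2 between days 0 and 6 was at -0.027 in clone 48 fitted alone, which was not called (adjusted p = 0.84). All came from edgeR's quasi-likelihood test, and clone and sequencing pool cannot be told apart in any of them.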

How the results depend on the processing

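Over 18 alternatives, 2197 of 2256 values of single genes kept their side of the threshold and any called direction, 36 lost a call and 21 gained one. The other 2 changed both sign and call, in clone 48 fitted alone. Ghr between days 2 and 6 went from -0.09, not called, to 0.35, called. Jak2 between days 0 and 6 went from 0.24, called, to -0.027, not called. No called direction was replaced by the opposite call. Another 119 values that were not called in either fit changed sign. With 1 replicate number of a clone left out, the number of the 8 genes called ranged from 1 to 5 for clone 66 against clone 48 at day 2 (2 in the fit as reported), from 0 to 2 for the clones' difference in the change from day 0 to day 2 (2 as reported), from 1 to 3 for that from day 2 to day 6 (2 as reported) and from 0 to 2 for that from day 0 to day 6 (1 as reported). With library size alone the first and second of these differences in change had 1 call each, with no filter the first had 1 and the third 0, and without RxraSA replicate 1 of clone 48 at day 0 the first had 1. For the third, DESeq2 gave 2 and the replicate block 3. No alternative called any of the 8 genes between genotypes. Over all genes, a block for every pair of libraries called 1 gene between genotypes at day 2 (0 as reported), and for the clones' difference in genotype effect at day 0 (0 as reported) no filter called 5 and the replicate block 3. With library size alone, the share of higher values among the calls of the third difference in change moved from 54.7% to 43.3%, and that of clone 66 against clone 48 at day 6 from 51.2% to 41.0%. Among the 8 genes the replicate block changed no other call than those of Ghr, Socs2 and Prlr given with the clones. It could not test clone differences on a single day, since each block lies within a clone. Over all genes, the clones' difference in change was called for 1144, 1033 and 644 genes, for as few as 574, 537 and 316 without replicate 2 of clone 48, and for 2248, 2082 and 1369 with the replicate block. No cause of these differences was tested. Prlr and Cish are limited by counts, and Stat5a and Stat5b by their shared sequence.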
